A study of Mus musculus with 4 samples.

Results

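The interferon response and antigen presentation genes were followed here in a mouse muscle cell line that carries extra Myolinc, a muscle long noncoding RNA. They form a list of 50 gene symbols, of which 41 had a row among the 20193 genes with a symbol. The symbols Oas1g, Ifi204, Parp9, Dtx3l, Igtp, Irgm2, Ifi47, H2-D1 and H2-Q4 matched no row. The rule for membership is the gene symbol and uses no measured value, but the list was proposed with earlier results of these data known.

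Total RNA of C2C12, an established mouse myoblast line kept in growth medium, was measured on 4 Affymetrix arrays. The 2 control arrays are from cells transfected with the empty vector pcDNA3.1/Zeo(+), and the 2 others from a polyclonal line transfected with Myolinc in that vector. Both groups were transfected with Lipofectamine 2000 and selected with Zeocin, so the controls carry the plasmid and both treatments too, and no untransfected or interferon-treated cells are among the 4 arrays. The labels call the arrays of a group biological replicates, but they name 1 polyclonal line and no separate transfections or cultures, so the effect of Myolinc and the history of that line cannot be told apart, and each p-value here rests on the spread of 2 arrays per group whose source is not described further. Myolinc's own level was not analysed here.

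Interferons are secreted proteins by which cells warn each other of infection. Type I interferons bind the Ifnar1 and Ifnar2 receptor chains and act through a complex that holds Stat2 and Irf9 and binds an element called the ISRE in the promoters of antiviral genes. Interferon gamma binds Ifngr1 and Ifngr2 and acts mostly through an element called GAS, raising GTPases of the cell's own defence and the proteins that cut, transport and display peptides on class I molecules. Many sensors of foreign RNA and DNA are themselves raised by interferon.

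The ISRE core GAAANNGAAA was searched on both strands of the promoter windows that RefSeq gives for the GRCm38.p6 assembly, each from 250 bases before to 50 bases after a gene's start. It was found for 16 of the 32 measured members with a window (50%), against 3.99% of the 27025 genes with a window. It was present for 7 of 14 effectors, 4 of 4 sensors, 1 of 5 regulators, 3 of 3 GTPases and 1 of 6 antigen presentation genes. The core of the GAS element, TTCNNNGAA, was found for 8 of the 32 (25%), against 9.55% of all genes. By role it was present for 5 of 14 effectors, 1 of 4 sensors, 1 of 5 regulators, 0 of 3 GTPases and 1 of 6 antigen presentation genes. A match is a description of the letters and not a binding site. The windows printed next belong to the member that passed the test, the effector and the sensor that came nearest to it, and the antigen presentation gene with the widest difference. Each is written 5′ to 3′ on the gene's own strand, with matches to the ISRE core in capitals.

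Irgm1, chr11:48871371-48871670, minus strand: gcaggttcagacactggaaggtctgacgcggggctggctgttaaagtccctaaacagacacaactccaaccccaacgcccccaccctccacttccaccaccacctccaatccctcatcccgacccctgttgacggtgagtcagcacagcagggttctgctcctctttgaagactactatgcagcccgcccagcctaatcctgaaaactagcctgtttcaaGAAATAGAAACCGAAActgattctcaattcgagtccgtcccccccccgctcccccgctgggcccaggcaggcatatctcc

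Ifit1, chr19:34640639-34640938, plus strand: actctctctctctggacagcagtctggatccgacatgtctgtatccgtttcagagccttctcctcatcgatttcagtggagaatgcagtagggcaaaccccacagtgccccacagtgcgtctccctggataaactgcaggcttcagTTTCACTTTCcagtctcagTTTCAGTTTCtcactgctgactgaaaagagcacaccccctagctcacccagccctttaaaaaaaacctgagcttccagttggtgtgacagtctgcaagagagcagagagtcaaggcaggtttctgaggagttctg

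Ifi203, chr1:173942443-173942742, minus strand: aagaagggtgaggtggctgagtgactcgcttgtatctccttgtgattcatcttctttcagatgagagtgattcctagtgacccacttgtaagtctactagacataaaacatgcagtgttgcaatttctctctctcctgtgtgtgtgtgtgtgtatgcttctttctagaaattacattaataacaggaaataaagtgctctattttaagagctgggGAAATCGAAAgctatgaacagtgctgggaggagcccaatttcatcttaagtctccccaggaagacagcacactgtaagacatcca

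Tap1, chr17:34187306-34187605, plus strand: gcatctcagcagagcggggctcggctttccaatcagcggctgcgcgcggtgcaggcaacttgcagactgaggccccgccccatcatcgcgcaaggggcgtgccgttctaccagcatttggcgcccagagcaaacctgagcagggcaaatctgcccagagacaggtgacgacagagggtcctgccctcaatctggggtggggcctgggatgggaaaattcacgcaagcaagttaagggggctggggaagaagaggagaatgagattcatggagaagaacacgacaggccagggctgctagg

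In the Irgm1 window the matches GAAATAGAAA and GAAACCGAAA overlap, beginning 30 and 24 bases before the start. The Ifit1 window holds TTTCACTTTC and TTTCAGTTTC, the same core read on the other strand, from 104 and 85 bases before the start. Ifi203 has GAAATCGAAA from 35 bases before the start, and a second window given for this gene holds no match. The Tap1 window holds no match to either core. It is largely also the promoter of Psmb9, which starts 226 bases away on the opposite strand, so that 275 bases of the 2 windows are the same DNA.

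The comparison of the Myolinc line with empty vector showed 1 change among the 41 measured members: Irgm1, an immunity-related GTPase that takes part in autophagy and defence against microbes inside cells, fell. No member rose and 40 did not pass, where passing means an adjusted p under 0.05 in limma with Benjamini-Hochberg adjustment over all 28944 probe sets tested. Among all genes 3.97% rose and 3.96% fell. The 1 call depends on leaving out 6612 rows taken as controls: with all rows kept in the fit, Irgm1 had a limma adjusted p of 0.0572 and 0 members passed. At an unadjusted p under 0.05 there were 10 members (24.4%, against 26.7% of all genes), of which Ifit2, Ifi203 and Stat2 were higher and Irgm1, Ifit1, Ifih1, Dhx58, Irf9, Gbp2 and Tap1 lower. An ordinary linear model gave 0 members after adjustment and 7 before it.

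Levels are log2 values from RMA, and a difference is always the mean of the Myolinc line minus that of empty vector on that scale. Over the members the differences ran from -0.77 for Irgm1 to 0.64 for Ifi203, with a median of -0.08, beside 0.02 over all genes. The size of the difference was 0.15 at the median for members and 0.12 for all genes. Both Myolinc arrays lay above both empty vector arrays for 8 members (19.5%, against 27.9% of all genes) and below them for 16 (39%, against 26%). The groups did not overlap for these 24 members together, where 53.9% of all genes did not overlap, and they overlapped for the other 17. For all members but Ifi203, the 95% interval of the difference lay within a 2-fold change either way.

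The readings were compared with those of 1037 olfactory receptor genes, taken as a guide to how high a probe set can read with little or no transcript. Whether any of these genes is transcribed in C2C12 was not tested. The 95th percentile of their mean levels was 6.68, and the median over all tested probe sets was 7.27. Of the members 24 had a mean level at or above that percentile and 17 below it. The 17 were Mx1, Mx2, Iigp1, Gbp2, Gbp3, Oas1b, Oas2, Oas3, Irf7, Psmb8, Dhx58, Rsad2, Xaf1, Ifit3, Ifi44, Zbp1 and Parp14. The median difference was -0.01 for the 24 and -0.13 for the 17. A probe set's reading also depends on its own sequence, so levels of different genes are not ranked as amounts of RNA, and close relatives such as Oas1a and Oas1b or Gbp2 and Gbp3 may share signal.

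**Figure D1:**
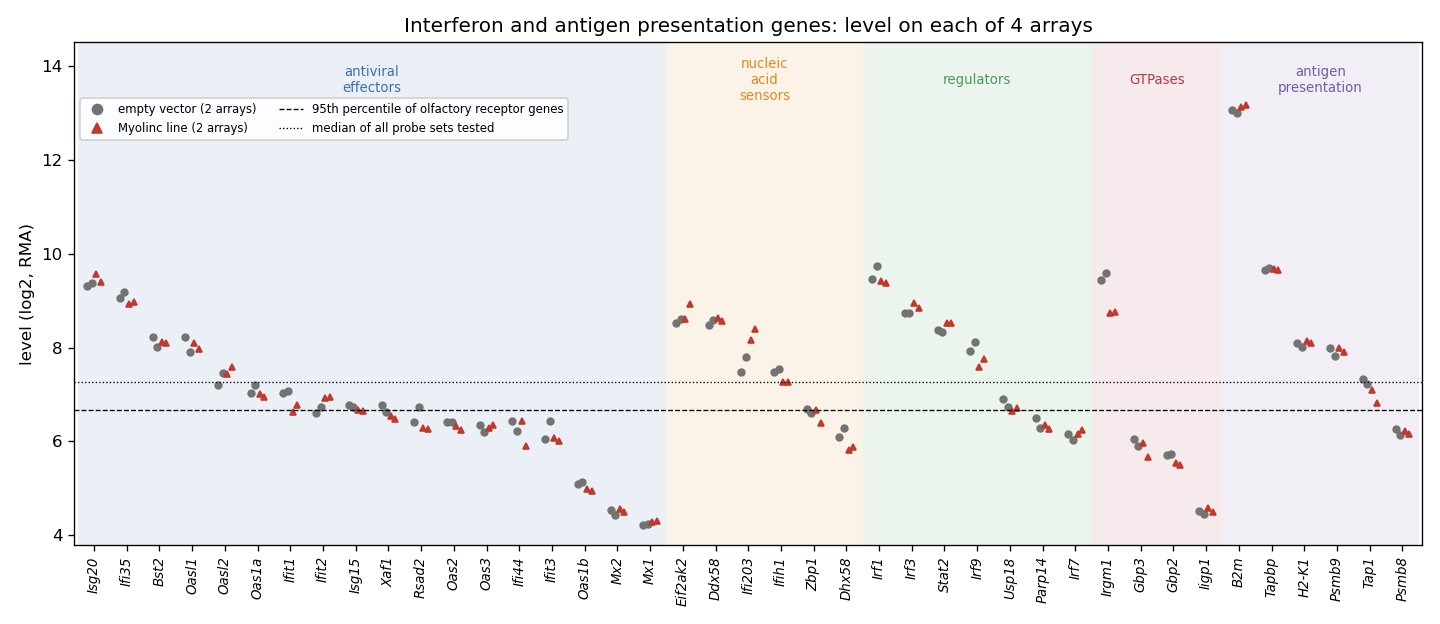
Level of each measured member (log2, RMA) on each of the 4 arrays, grouped by role, with 1 symbol per group and the olfactory receptor 95th percentile (6.68) as a reference. Irgm1 is the member whose groups stand apart and pass the test, and the readings of Mx1, Mx2 and Iigp1 lie far below the reference.

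The immunity-related and guanylate-binding GTPases are defence proteins that interferon gamma raises strongly in many mouse cells. Of the 7 listed 4 were measured: Irgm1 fell, Iigp1, Gbp2 and Gbp3 did not pass, and the median difference was -0.18. That median ran from -0.27 to -0.10 without an array and was -0.08 with each chromosome's median removed. Irgm1 read 9.44 and 9.58 on the empty vector arrays and 8.73 and 8.75 on the Myolinc arrays. Both Myolinc arrays were lower, and the gap was several times wider than either group's spread. The means were 9.51 ± 0.10 and 8.74 ± 0.01 (SD, n = 2), a difference of -0.77 (SE 0.07, 95% interval -0.98 to -0.57), which is 1.71-fold lower, with a limma adjusted p of 0.0233. Without empty vector replicate 1 the difference was -0.84 (adjusted p = 0.233), and without replicate 2 it was -0.70 (adjusted p = 0.221). No gene of the array passed in either of those fits.

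Gbp2 read 5.70 and 5.74 with empty vector and 5.55 and 5.49 in the Myolinc line. Both Myolinc arrays were lower, by 0.20 (95% interval 0.04 to 0.37 lower, limma adjusted p = 0.145). Gbp3 was at 6.05 and 5.90 against 5.96 and 5.66, and its groups overlapped. Iigp1, which acts on the vacuoles of intracellular parasites, read 4.52 and 4.46 against 4.58 and 4.50, also overlapping. All of these readings except those of Irgm1 lay below the olfactory receptor percentile, so a change of these genes at low abundance may not be measurable on this array.

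The antiviral effectors include proteins that bind viral RNA (Ifit1, Ifit2, Ifit3), make the messenger that activates RNase L (Oas1a, Oas2, Oas3), block incoming virus (Mx1, Mx2) or tether budding virus (Bst2). None of the 18 measured of 19 listed passed in limma, 2 had an unadjusted p under 0.05, and the differences ran from -0.36 to 0.27 with a median of -0.11. Ifit1 read 7.04 and 7.08 on the empty vector arrays and 6.63 and 6.77 on the Myolinc arrays. It was lower on both, by 0.36 (SE 0.08, 95% interval 0.15 to 0.57 lower), with a limma adjusted p of 0.0760. The Ifit1 reading on Myolinc replicate 1 lay below the olfactory receptor percentile.

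Ifit2, which lies near Ifit1 on chromosome 19, differed the other way. It read 6.60 and 6.73 with empty vector and 6.93 and 6.94 in the Myolinc line, higher on both arrays by 0.27 (SE 0.07, limma adjusted p = 0.116). The Ifit2 reading on empty vector replicate 1 lay below the olfactory receptor percentile. Ifit3 of the same family read 6.06 and 6.44 against 6.08 and 6.005. Its groups overlapped, because the empty vector arrays lay far apart. The 3 relatives thus had differences of -0.36, 0.27 and -0.21, none of which passed, and whether they differ from each other was not tested.

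Rsad2, the viperin gene, makes a nucleotide that stops viral RNA chains. It read 6.41 and 6.74 with empty vector and 6.28 and 6.26 in the Myolinc line, a difference of -0.31 (SE 0.13, limma adjusted p = 0.244), with no overlap but a wide gap between the empty vector arrays. Ifi35, an interferon-induced protein of unsettled role, read 9.06 and 9.18 against 8.92 and 8.97 (difference -0.18, limma adjusted p = 0.238). Xaf1, a partner of the apoptosis inhibitor Xiap, was at 6.78 and 6.64 against 6.55 and 6.49 (difference -0.19, limma adjusted p = 0.243). In both genes the Myolinc arrays were the lower ones, by 1.13-fold and 1.14-fold.

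Isg20, an exonuclease that degrades viral RNA, had the highest reading of the effectors. It gave 9.32 and 9.38 with empty vector and 9.56 and 9.40 in the Myolinc line, higher on both but by 0.14 alone (limma adjusted p = 0.421). Mx1 had the lowest reading, 4.22 and 4.24 against 4.28 and 4.30. Mx1 and Mx2 both read well under the olfactory receptor percentile on all 4 arrays.

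The row named Isg15, the ubiquitin-like protein that is joined to other proteins during an interferon response, read 6.78 and 6.73 against 6.68 and 6.64. Both Myolinc readings were lower, by 0.10 on average, and did not pass. Probe set numbers run along the chromosomes, and this row lies among genes of chromosome 17, whereas RefSeq places Isg15 on chromosome 4. Such a mismatch was seen for 1 of the 41 members and for 1.56% of 19453 genes, so this value may not report the Isg15 transcript.

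The oligoadenylate synthetase family gave small differences in both directions: Oas1a and Oas1b were each lower by 0.15, Oas2 by 0.13 and Oasl1 by 0.04, while Oas3 was higher by 0.04 and Oasl2 by 0.17. Oasl1, an inhibitor of Irf7 translation in mouse, read 8.22 and 7.91 against 8.09 and 7.96, with the empty vector arrays on either side of both Myolinc arrays. Ifi44 differed by -0.15 and Bst2 by -0.01, both with overlapping groups. The signs of Oas3, Oasl1, Bst2, Mx2 and Ifi44 each turned when an array was left out.

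**Figure D2:**
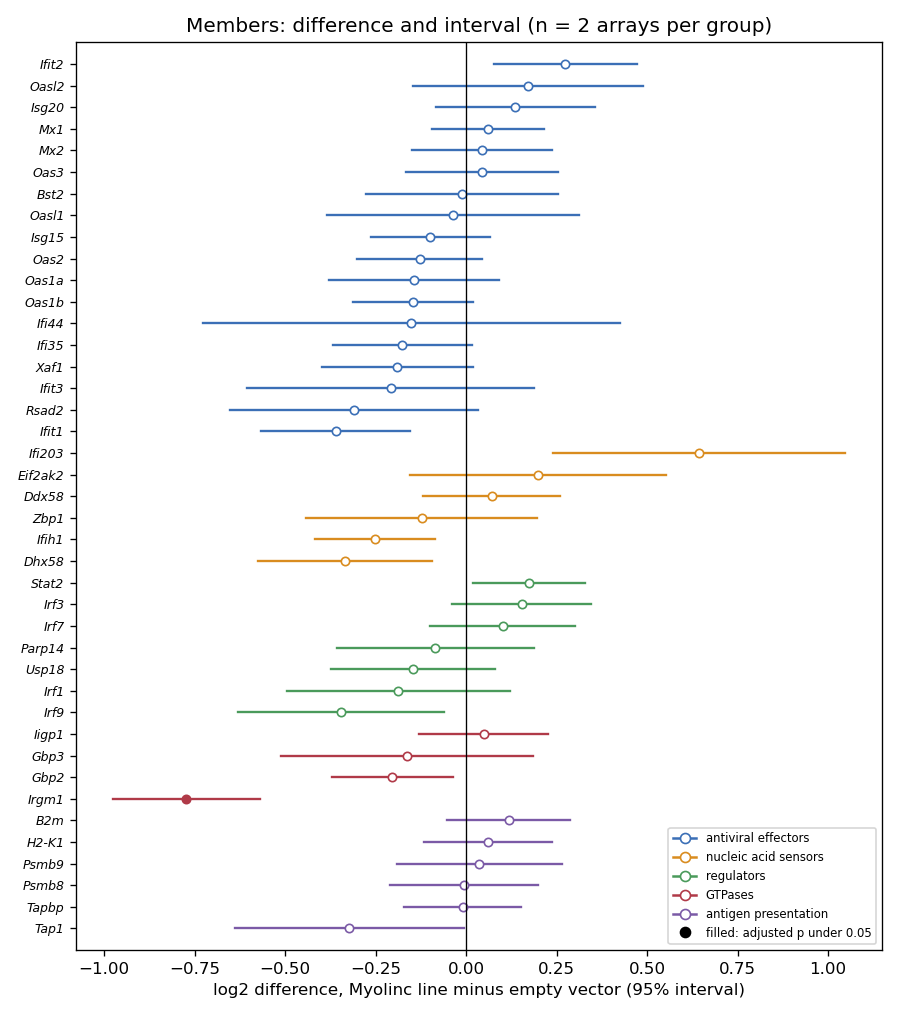
Log2 difference (Myolinc line minus empty vector) of each measured member with its 95% interval from limma, 2 arrays per group, ordered within roles. The interval of Irgm1 (-0.98 to -0.57) lies furthest from 0 and that of Ifi203 reaches highest, at 1.05.

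The sensors of foreign nucleic acid were measured for 6 of 7 listed, and 0 passed in limma, with 3 at an unadjusted p under 0.05. The widest positive difference of all members was that of Ifi203, a mouse protein of the DNA-sensing p200 family. It read 7.48 and 7.80 with empty vector and 8.17 and 8.40 in the Myolinc line. Both Myolinc arrays were higher, by 0.64 (SE 0.15, 95% interval 0.24 to 1.05), or 1.56-fold, with a limma adjusted p of 0.0904. Each group's arrays lay apart by a good part of that gap. The p200 genes are close relatives in 1 cluster on chromosome 1, and probes of 1 may read others.

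The RNA sensors Ifih1, also called MDA5, and Dhx58, also called LGP2, were both lower. Ifih1 read 7.48 and 7.55 against 7.27 and 7.26, a difference of -0.25 (SE 0.06, limma adjusted p = 0.0990). Dhx58 read 6.09 and 6.28 against 5.82 and 5.88, below the olfactory receptor percentile on all arrays, with a difference of -0.34 (SE 0.09, limma adjusted p = 0.116). In neither did the groups overlap. Their relative Ddx58, or RIG-I, differed by 0.07 with overlapping groups.

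Eif2ak2, the kinase PKR that halts translation when it binds double-stranded RNA, read 8.53 and 8.62 against 8.61 and 8.93 and overlapped (difference 0.20, limma adjusted p = 0.465). Zbp1, a sensor of Z-form nucleic acid, differed by -0.12. Among the sensors 3 differences were thus positive and 3 negative, with a median of -0.03.

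The regulators carry the signal to the nucleus or damp it, and 0 of the 7 measured of 9 listed passed in limma, with 2 at an unadjusted p under 0.05. Irf9 and Stat2, which bind each other in the complex on the ISRE, differed in opposite directions. Irf9 read 7.93 and 8.11 with empty vector and 7.58 and 7.76 in the Myolinc line, lower on both by 0.35 (95% interval 0.06 to 0.63 lower, limma adjusted p = 0.147). Stat2 read 8.36 and 8.34 against 8.52 and 8.53, higher on both by 0.17 (95% interval 0.02 to 0.33, limma adjusted p = 0.171).

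Irf3, the factor that first switches on interferon genes in an infected cell, read 8.74 on both empty vector arrays and 8.96 and 8.83 in the Myolinc line (difference 0.15, limma adjusted p = 0.3004). Irf7, which amplifies that step, was at 6.15 and 6.04 against 6.15 and 6.24, below the olfactory receptor percentile. Irf1 read 9.45 and 9.73 against 9.42 and 9.38 (difference -0.19), and its empty vector arrays lay further apart than the group means. Usp18, which removes Isg15 from proteins and inhibits the type I receptor, read 6.91 and 6.74 against 6.65 and 6.70 (difference -0.15, limma adjusted p = 0.392). Parp14 differed by -0.08. None of these differences passed.

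The antigen presentation genes on the list cover the inducible proteasome subunits Psmb8 and Psmb9, the peptide transporter subunit Tap1, the loading factor Tapbp, and the class I molecule's heavy chain H2-K1 and light chain B2m. None of the 6 measured of 8 listed passed in limma, and Tap1 alone had an unadjusted p under 0.05. B2m read 13.07 and 12.99 with empty vector and 13.13 and 13.17 in the Myolinc line. It was higher on both arrays by 0.12, with a 95% interval of -0.05 to 0.29 (limma adjusted p = 0.369). H2-K1 read 8.10 and 8.01 against 8.13 and 8.10 and overlapped (difference 0.06, 95% interval -0.12 to 0.24), and its probes may also read other class I heavy chains.

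Tap1 read 7.34 and 7.23 against 7.10 and 6.82, lower on both Myolinc arrays by 0.32 (SE 0.12, limma adjusted p = 0.202), although these arrays also lay apart from each other by nearly as much. Psmb9, which shares the promoter printed with Tap1, read 7.98 and 7.83 against 7.99 and 7.90. Its groups overlapped, with a difference of 0.04 and a 95% interval of -0.19 to 0.26. Tapbp (9.65 and 9.70 against 9.67 and 9.66) and Psmb8 (6.26 and 6.13 against 6.22 and 6.16) each differed by -0.01. The 95% intervals of the differences of B2m, H2-K1, Psmb9, Tapbp and Psmb8 all lie between -0.21 and 0.29. The readings of Psmb8 lay below the olfactory receptor percentile, so a change of it at low abundance may not be measurable on this array.

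Type I response genes, that is effectors, sensors and regulators, were set beside the GTPases and antigen presentation genes. Of 31 measured type I genes 0 rose and 0 fell in limma. An unadjusted p under 0.05 was found for 7 (22.6%, against 26.7% of all genes). Of the 31 differences 12 were positive and 19 negative, where all genes had 11069 positive and 9124 negative. The median difference was -0.10. It turned to 0.07 over the type I genes left when lower-level probe sets were taken out, and was -0.02 over those at or above the olfactory receptor percentile. Of the 10 measured GTPase and antigen presentation genes 1 fell (10%, against 3.96% of all genes). For 3 of them an unadjusted p was under 0.05 (30%, against 26.7%), and their median difference was -0.01. The median level of the type I genes was 6.91 and 6.74 on the empty vector arrays and 6.68 and 6.77 on the Myolinc arrays. The 2 empty vector arrays thus lay further apart than the means of the groups. Without Myolinc replicate 2 the type I median was -0.01, and without empty vector replicate 1 the antigen presentation median was 0.08 in place of 0.02. The median over all genes was 0.02, and the difference between the 2 sets was not tested.

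**Figure D3:**
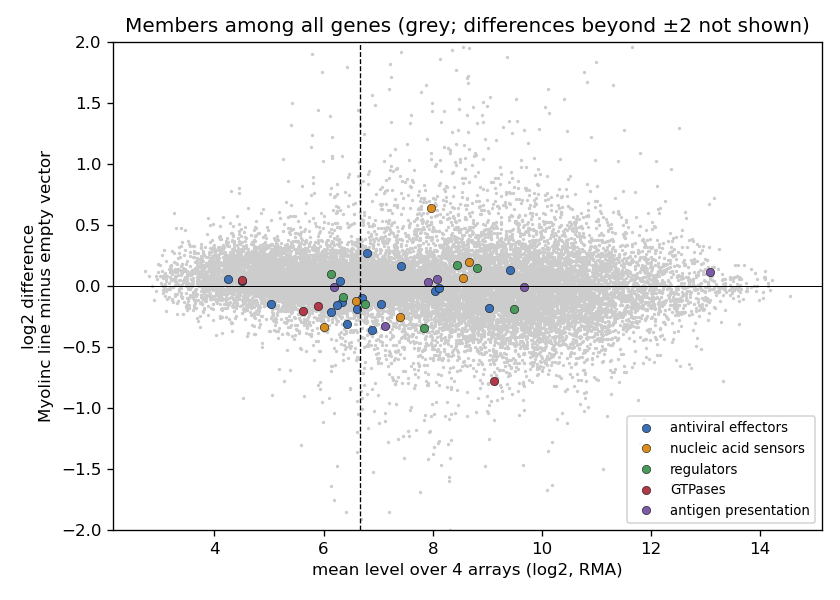
Mean level over the 4 arrays (log2, RMA, x axis) against the log2 difference (y axis) for all 20193 genes in grey and the members in colour, with the olfactory receptor 95th percentile at 6.68 as a dashed line. Members lie within the grey cloud at all levels, with Irgm1 (-0.77) at its lower side and Ifi203 (0.64) at its upper side.

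The rest of the pathway was taken from lists of 127 further genes, chosen by role, of which 104 were measured. In limma 6 rose (Ifngr2, Ifnar2, Aim2, Ticam1, Slfn2 and Gvin1) and 6 fell (Tlr3, Myd88, Samhd1, Parp12, Lgals9 and Psmb10), 5.77% in each direction, beside 3.97% and 3.96% of all genes. The median difference was 0.03. As for Irgm1, all 12 failed to pass without either empty vector array. Without Myolinc replicate 1, Ifnar2, Ifngr2, Lgals9, Samhd1, Ticam1 and Tlr3 were lost, and without replicate 2 Ifnar2 and Lgals9. With all rows kept in the fit Aim2 alone of the 12 passed (limma adjusted p = 0.0411).

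None of the 7 measured interferon genes passed in limma, and 0 had an unadjusted p under 0.05. The gene of interferon gamma, Ifng, read 6.14 and 6.21 against 6.27 and 6.41 (difference 0.17, limma adjusted p = 0.314), below the olfactory receptor percentile on all arrays. Ifna2, a type I interferon, differed by 0.15 (limma adjusted p = 0.409).

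Of the 7 receptor and kinase genes measured 2 rose, both receptor chains, where 3.97% of all genes rose. Ifngr2, the signalling chain of the interferon gamma receptor, read 11.07 and 11.11 with empty vector and 11.74 and 11.68 in the Myolinc line. It rose by 0.62 (SE 0.06), or 1.54-fold, with a limma adjusted p of 0.0240. Ifnar2, a chain of the type I receptor, read 10.23 and 10.32 against 10.77 and 10.81 and rose by 0.51 (SE 0.07), with a limma adjusted p of 0.0324. The groups of both genes were well separated.

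The partner chains did not pass: Ifnar1 had a difference of 0.42 (limma adjusted p = 0.0558) and Ifngr1 one of 0.31 (limma adjusted p = 0.0872), although for both each Myolinc array was above both empty vector arrays. Of the receptor kinases Tyk2 had a difference of 0.25, Jak1 of -0.05 and Jak2 of -0.29, none past the threshold.

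Of 14 further sensors and adaptors 2 rose and 2 fell (14.3% each way, against 3.97% and 3.96% of all genes). The widest difference was that of Aim2, the p200-family sensor of double-stranded DNA in the cytosol that starts an inflammasome. It read 6.36 and 6.26 with empty vector and 7.98 and 8.28 in the Myolinc line. It rose by 1.82 (SE 0.12), with a limma adjusted p of 0.0140. Its empty vector readings lay below the olfactory receptor percentile and its Myolinc readings above it, so no exact fold is given.

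Tlr3, the endosomal receptor for double-stranded RNA, and its adaptor Ticam1 moved apart. Tlr3 read 7.23 and 7.44 against 6.55 and 6.54 and fell by 0.80 (limma adjusted p = 0.0281), with both Myolinc readings below the olfactory receptor percentile. Ticam1 read 9.002 and 8.98 against 9.56 and 9.45 and rose by 0.51 (limma adjusted p = 0.0343). Myd88, the adaptor of most other Toll-like receptors, read 10.49 and 10.46 against 9.81 and 9.76 and fell by 0.69 (1.61-fold, limma adjusted p = 0.0200).

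Of 9 other transcription factors 0 passed in limma, with Irf2 nearest (difference -0.37, limma adjusted p = 0.0538) and 1 at an unadjusted p under 0.05. Samhd1, which depletes the nucleotides that viruses copy with, was the 1 of 9 inhibitors and negative regulators to change (11.1%, against 7.93% of all genes). It read 11.19 and 11.26 against 10.59 and 10.65 and fell by 0.60 (limma adjusted p = 0.0261). Socs3, an inhibitor of cytokine receptors, differed by 0.20 and did not pass.

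Among 29 further effectors 1 rose and 2 fell (3.45% and 6.9%, against 3.97% and 3.96% of all genes). Slfn2, a schlafen family gene of mouse, read 8.31 and 8.33 against 9.32 and 9.14 and rose 1.87-fold (limma adjusted p = 0.0215). Parp12, an ADP-ribosyltransferase induced by interferon, read 9.55 and 9.81 against 8.61 and 8.55 and fell by 1.10 (SE 0.11), which is 2.14-fold lower, with a limma adjusted p of 0.0233. Lgals9, or galectin-9, read 10.51 and 10.50 against 10.04 and 9.93 and fell by 0.51 (limma adjusted p = 0.0339).

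Of 8 further GTPases Gvin1, a very large interferon-inducible GTPase, rose (12.5%, against 3.97% of all genes). It read 7.47 and 7.38 against 8.01 and 8.11 (difference 0.63, limma adjusted p = 0.0280), opposite in sign to Irgm1. Of 21 further antigen presentation genes Psmb10, another inducible proteasome subunit, fell (4.76%, against 3.96% of all genes). It read 9.03 and 9.05 against 8.46 and 8.41 and fell by 0.60 (limma adjusted p = 0.0238), while its partners Psmb8 and Psmb9 had the differences of -0.01 and 0.04 given with the antigen presentation genes. Erap1, which trims peptides, had a difference of -0.60 and did not pass (limma adjusted p = 0.0531).

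**Figure D4:**
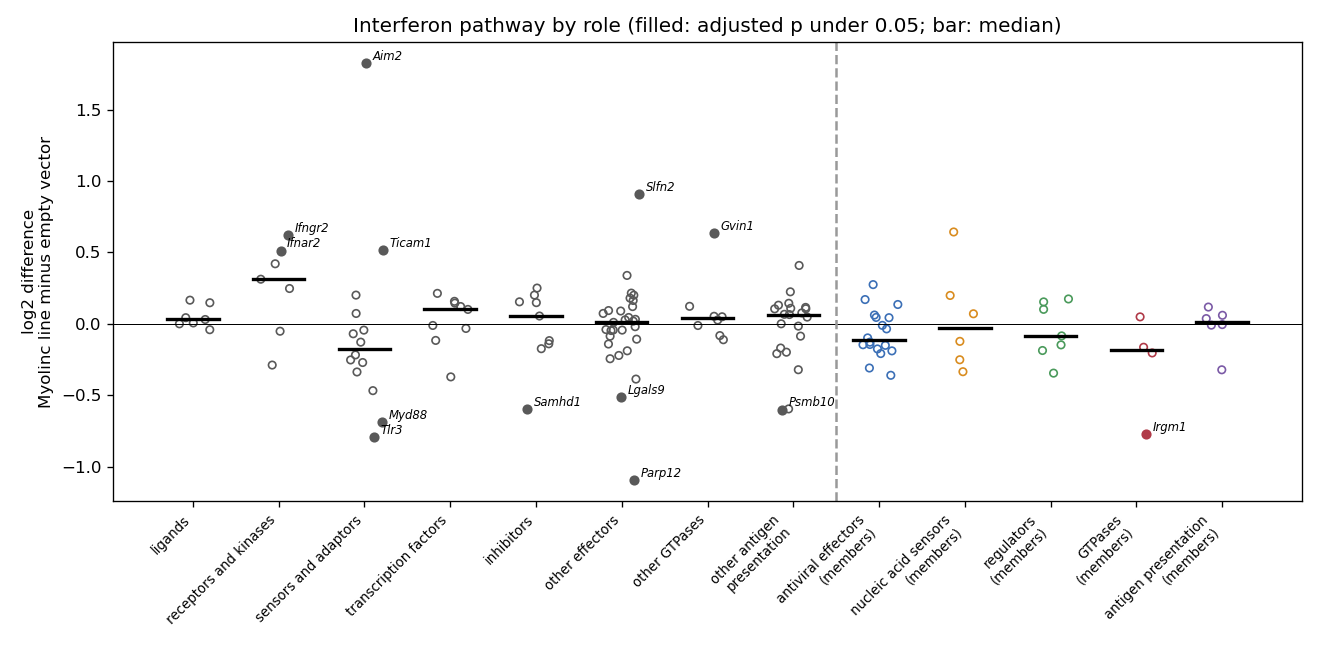
Log2 difference (Myolinc line minus empty vector) of the members and of the further pathway genes by role, 1 point per gene, with passing genes filled and a bar at each role's median. The receptor and kinase genes have the highest median (0.31), and Aim2 (1.82) and Parp12 (-1.10) are the extremes.

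The genes next to Irgm1 on chromosome 11 were also read. Of the 10 measured genes on each side, 9 read at or above the array median, and all 9 had negative differences, with a median of -0.20. The olfactory receptor genes Olfr1393 and Olfr1394, both at -0.001, are among these 9, and the other 7 ran from -0.58 for Snord96a to -0.13 for Trim41. Of the 20 genes 2 fell, Sgcd, a dystrophin-complex subunit, by 0.94 and the small nucleolar RNA gene Snord95 by 0.54. Over all genes 3.96% fell. The median over the 890 chromosome 11 genes at or above the array median was -0.11. With each chromosome's median removed Irgm1 was at -0.66 (limma adjusted p = 0.0238). These 7 neighbours thus had the same sign as Irgm1 at a smaller size. Over all 12566 genes at or above the olfactory receptor percentile, 6374 had negative differences. Whether the differences of the neighbours bear on that of Irgm1 was not tested.

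Ifngr2, Ifnar1 and Ifnar2 lie side by side on chromosome 16, where the median difference of 329 such genes was 0.16. Of the 15 neighbours of Ifngr2 at or above the array median 12 had positive differences, with a median of 0.19. Ifnar1 and Ifnar2 are themselves among the 15. Over all 12566 genes at or above the olfactory receptor percentile, 6192 had positive differences. Ifnar2, Cryzl1 and Atp5o rose while Slc5a3 fell by 0.67. With chromosome medians removed Ifngr2 was still past the threshold at 0.46 (limma adjusted p = 0.0307), and Ifnar2 at 0.36 was not (limma adjusted p = 0.0536). Around Aim2 on chromosome 1 the 2 neighbours at or above the array median were the p200 genes Ifi203 (0.64) and Ifi202b (0.58). AI607873, at a mean level of 7.20 just under that median, had a difference of 0.54 (limma adjusted p = 0.0535). Pyhin1, at a low reading of 4.54, had one of -0.21. The median difference of the 20 neighbours was 0.13, and none of them passed in limma. Probes of p200 genes may read each other, as said for Ifi203. These last 2 neighbourhoods were chosen after their values had been seen.

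**Figure D5:**
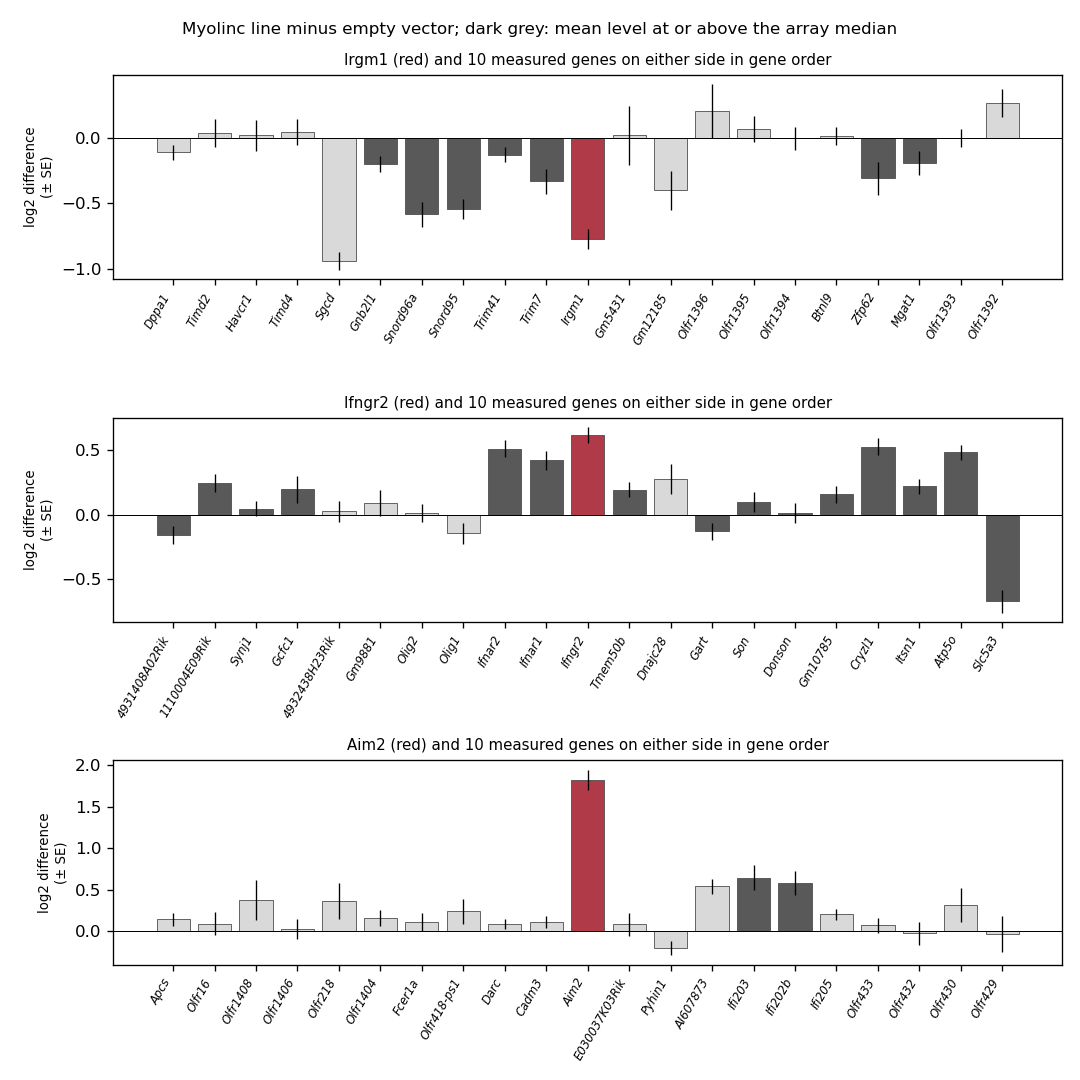
Log2 difference ± SE of Irgm1, Ifngr2 and Aim2 (red) and the 10 measured genes on either side of each in RefSeq gene order (x axis), with dark grey for genes at or above the array median. Neighbours of Irgm1 at or above the array median lie at or under 0, and most such neighbours of Ifngr2 lie above it. Aim2 is the highest of its row at 1.82, and Ifi203 (0.64), Ifi202b (0.58) and AI607873 (0.54) come next.

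The labelled cell type was checked against lists of markers, chosen like the other lists with earlier results of these data known. All 9 measured of 10 myoblast markers read at or above the array median, with the muscle determination factor Myod1 at 11.54, 11.47, 11.59 and 11.55 (empty vector, then the Myolinc line). Of these 9 markers 7 were higher on both Myolinc arrays (77.8%, against 27.9% of all genes). Vim was lower on both (difference -0.05), and Pax7 (-0.21) had overlapping groups. Cdh15 (difference 0.49) and Itga7 (1.23) rose (22.2%, against 3.97%). Among all genes at or above the olfactory receptor percentile, 31.6% were higher on both Myolinc arrays and 5.84% rose. The intermediate filament gene Des had a difference of 0.33 (limma adjusted p = 0.0550) and the early myogenic factor Myf5 one of 0.38 (limma adjusted p = 0.0580). Whether these shifts bear on the interferon genes was not tested.

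Markers of other cell types, among them immune cells that respond strongly to interferon, were read too. Of 13 macrophage and leukocyte markers 10 lay below the olfactory receptor percentile, and the list's median was 6.20 and 6.15 with empty vector and 6.34 and 6.20 in the Myolinc line. The defining genes Ptprc (5.95, 5.87, 6.45 and 6.05) and Csf1r (6.20, 6.15, 6.32 and 6.16) read low on every array. Of the 13 differences 9 were positive. Cd68, which many cell types express, fell by 0.46 (limma adjusted p = 0.0308). Cd14, a co-receptor for bacterial lipopolysaccharide that reads above the percentile, was at 7.56 and 7.72 against 8.09 and 8.06 (difference 0.44, limma adjusted p = 0.0575). Fcer1g differed by 0.28 (limma adjusted p = 0.120), and neither passed. None of the 12 dendritic cell and lymphocyte markers and none of the 8 endothelial markers passed in limma (before adjustment 1 and 0 lay under 0.05). Of the 12 markers 3 read at or above the olfactory receptor percentile: Cd3e (mean level 7.36), Cd8a (6.85) and Flt3 (6.71). Of the 8 endothelial markers 3 did so too: Cldn5 (7.24), Vwf (7.12) and Tie1 (6.71). The endothelial gene Pecam1 read 6.30, 6.06, 6.19 and 6.24, below that percentile. Without an empty vector array none of the 3 marker calls held, without Myolinc replicate 1 Cdh15 and Cd68 were lost, and without replicate 2 Cd68.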

How the data were processed

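Total RNA was hybridised to 4 Affymetrix arrays, 2 per group. The deposited log2 values were made by the authors with RMA, and limma is named too, per the submitters' processing notes, without versions. For the annotation and genome build nothing is given in the sources used here. Per the file headers a p-value was deposited for each named gene. A limma fit of all 35556 rows gave unadjusted p-values within 8.13e-05 of it.

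The 6612 lowest-numbered rows, which carry no symbol, were taken as controls and left out, and 28944 probe sets were tested with limma 3.58.1 in R 4.3.3 (lmFit and eBayes, two-sided, all 4 arrays, 4.18 degrees of freedom). Benjamini-Hochberg adjustment ran over all of them with a threshold of 0.05. Each symbol had 1 probe set. An exact permutation test of 2 against 2 arrays cannot go below 0.333, and precision is limited by the number of arrays. Of the symbols 19453 matched RefSeq, which gave chromosomes, gene order and promoter windows.

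The members and lists were chosen with earlier results of these data known. Array values are given for members past the threshold, the 4 with the smallest p and the highest and lowest readings of each role, further pathway genes past the threshold, and defining markers. A few others (Ifit3, Rsad2, Oasl1, Isg15, Gbp3 and the like) were added after their values were seen. The values of 1 gene of the further pathway lists are left out of the text, though its row is in the counts. Other settings covered normalization, filters, the variance model, the adjustment, a replicate block, chromosome medians, values stored with 3 digits, and leaving out each array. Figures were drawn with matplotlib 3.10.9. The fit was tested on simulated data.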

Additional observations from a re-analysis of the deposited data

How the results depend on the processing

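The fit as reported called 0 members up, 1 down and 1602 genes in all. Genes called in all (members up, down) were 287 (0, 0) with all rows kept, 136 (0, 0) with the replicate number as a block, where Irgm1 had an adjusted p of 0.0603 and the 12 called pathway genes 0.0562 to 0.0720, 2490 (0, 2) with symbol rows alone, and 4209 (1, 1) with a trended robust variance. They were 4196 (2, 3) without lower-level probe sets, 3729 (2, 3) without those below the olfactory receptor percentile, 90 (0, 0) at a threshold of 0.01, 3069 (1, 3) at 0.10 and 0 (0, 0) with an ordinary linear model (4577 unadjusted). The members gained were among Ifi203, Stat2 and Ifit2 upwards and Ifit1, Ifih1 and Irf9 downwards. Leaving out an array gave 0 to 1468 genes, 0 members up and 0 to 1 down. The replicate numbers are not known to pair the arrays. Over all tested probe sets, the difference of replicate 1 minus replicate 2 had a correlation of 0.215 between the groups.

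The type I median was 0.07 and -0.0235 under the 2 level filters and -0.122 to -0.0079 without an array. The GTPase median was -0.0814 with chromosome medians removed, -0.77 under either filter, which leaves Irgm1 alone, and -0.27 to -0.10 without an array, and the antigen presentation median -0.0134 to 0.0808.

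Of 41 members 29 kept 1 sign in each of the 14 to 16 other fits that held them, and the other 12 had a reported difference of at most 0.15. With array medians centred Pecam1 was at -0.007 and Psmb9 at -0.0054. With chromosome medians removed Bst2 was at 0.116, Mx1 at -0.0942, Mx2 at -0.111, Psmb9 at -0.0156 and Zbp1 at 0.0217. After quantile normalization Iigp1 was at -0.0046, Mx1 at -0.0007, Mx2 at -0.007, Oas3 at -0.0116, Pecam1 at -0.0218 and Tapbp at 0.0193. Without an array Bst2 ranged from -0.13 to 0.10, Oasl1 from -0.19 to 0.12, Parp14 from -0.19 to 0.0251, Psmb8 from -0.0698 to 0.0581, Mx2 from -0.0056 to 0.0944, Oas3 from -0.0276 to 0.11, Pecam1 from -0.0867 to 0.16, Psmb9 from -0.0418 to 0.11, Tapbp from -0.0356 to 0.0162, Csf1r from -0.0184 to 0.14, Ifi44 from -0.42 to 0.12 and Zbp1 from -0.26 to 0.0168. The cause of these changes was not tested, beyond the fewer arrays or probe sets in a fit.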
